A study of Homo sapiens with 16 samples.

Results

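The 10 genes described here are 4 transcription factors of bone formation (RUNX2, SP7, DLX5 and MSX2) and 6 genes for matrix, mineral or secreted proteins of bone (ALPL, SPP1, BGLAP, IBSP, SPARC and TNFRSF11B). They were chosen by name from the known program of osteoblasts and were found by symbol among the 60649 genes of the deposited count table. The RNA came from ASC52telo, a line of adipose-derived mesenchymal stem cells (MSCs) immortalized with hTERT, so every culture in every group carried hTERT and shared the genome of 1 line. Young MSCs without any addition (MmC-/GDF11-), young MSCs with growth differentiation factor 11 (MmC-/GDF11+), senescent MSCs (MmC+/GDF11-) and senescent MSCs with GDF11 (MmC+/GDF11+) were each sequenced in 4 biological replicates after poly(A) selection. Senescence had been induced by the DNA alkylating agent mitomycin C (MmC) at 1.5 µg/mL for 18 h, GDF11 was kept at 10 ng/mL for the next 10 days, and the sources used here name no osteogenic medium for any group.

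Osteoblasts arise from MSCs in an ordered series of steps. RUNX2 commits a cell to the lineage, SP7 (osterix) acts downstream of it, and the homeodomain factors DLX5 and MSX2 respond to bone morphogenetic proteins. Alkaline phosphatase (ALPL) then removes pyrophosphate, an inhibitor of mineral, while SPARC (osteonectin), SPP1 (osteopontin), IBSP (bone sialoprotein) and BGLAP (osteocalcin) are secreted into the matrix. TNFRSF11B (osteoprotegerin) is a decoy receptor that keeps RANKL from driving osteoclast formation.

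Senescent MSCs held less RUNX2 RNA than young MSCs, at 0.507-fold without GDF11 and 0.568-fold with it. They held more SPP1 RNA, at 7.77-fold and 4.92-fold, and more IBSP RNA, which was close to 0 in young MSCs. ALPL, SPARC and TNFRSF11B were well expressed in every library and did not pass the test for MmC in the fit without a replicate term. SP7, DLX5, MSX2 and BGLAP were at 9 counts or fewer in every library. No member passed the test for GDF11 in young or in senescent MSCs.

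Libraries held between 71275337 and 144204979 counts. Levels are given in CPM, a gene's counts over those of its library times 1e+06, scaled by the trimmed mean of M values (TMM). A gene entered the test if its counts were high enough in at least as many libraries as 1 group has, which left 19103 genes and 6 of the 10 members. IBSP entered only through the libraries with MmC, so it had to differ. Adjusted p-values are from the quasi-likelihood test of edgeR with Benjamini-Hochberg adjustment over all 19103 genes, and a gene was called at an adjusted p under 0.05. The sources call the replicates biological, but all came from 1 line, so their spread holds no variation between donors. The 5 MSC surface markers examined were counted in every library, with median levels from 307.9 CPM for PDGFRB to 1145 CPM for CD44, and their summed level lay between 3338 and 3981 CPM. The sum hides changes in both directions after MmC without GDF11. PDGFRB was lower (log2 fold change -0.68, adjusted p = 0.00112) and NT5E higher (0.38, adjusted p = 0.00989), while THY1, ENG and CD44 were not called. The adipocyte marker ADIPOQ, the smooth muscle marker MYH11 and the osteoclast marker OCSTAMP had a median of 0 CPM. Of the 6 adipocyte markers, 1 reached a median of 1 CPM, as did 3 of 5 chondrocyte, 3 of 5 smooth muscle, 3 of 3 endothelial and 1 of 4 osteoclast markers. After MmC without GDF11 the adipocyte marker FABP4 was lower (-0.95, adjusted p = 0.041) and CEBPA higher (3.11, adjusted p = 0.00114). PLIN1 and LPL were not called. LEP, at a median of 0.0465 CPM, had a log2 fold change of 5.87, at this level a description and no test. The summed level of the 5 smooth muscle markers ran from 771.6 to 1561 CPM in MmC-/GDF11- and from 428.7 to 1492 CPM in MmC+/GDF11-, with TAGLN the highest of them. In the same groups the 3 endothelial markers summed to 7.82 to 11.2 and 8.58 to 20.9 CPM, and the 4 osteoclast markers, nearly all of it CTSK, to 158 to 333 and 243 to 471 CPM. The endothelial markers moved in both directions after MmC without GDF11. CDH5 was lower (log2 fold change -1.51, adjusted p = 4.48e-06), and PECAM1 (1.27, adjusted p = 0.00966) and VWF (0.66, adjusted p = 0.0272) were higher. The 5 chondrocyte markers summed to 5.04 to 18.6 and 10.5 to 22.7 CPM and did not move together. COL10A1, a collagen of hypertrophic cartilage, was higher after MmC without GDF11 (log2 fold change 3.88, adjusted p = 1.26e-05). ACAN (-2.42, adjusted p = 0.0204) and MATN3 (-0.79, adjusted p = 0.0456) were lower, and COMP (-1.09, adjusted p = 0.261) was not called. CALCR, of the osteoclast list, ran from 0 to 0.157 CPM over all libraries, with a log2 fold change of 6.12 in the same comparison. At this level it passed the filter only through its highest libraries, so that value is a description and no test. ACP5 and CTSK of the same list were not called (adjusted p = 0.186 and 0.192). The part of other cell types in the results was not tested. In bulk RNA, fewer cells that express a gene and less RNA per cell cannot be told apart.

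The sequences before the start sites of 4 members are shown, RUNX2, SPP1 and IBSP because they differ with MmC and BGLAP because its few counts differ between the young groups, a difference no fit called. They are from RefSeq on GRCh38.p14, 5′ to 3′ on the strand of the gene, cut before the first annotated exon base. Capitals mark the RUNX core (ACCACA or TGTGGT), a homeodomain core (TAATTA) or an AP-1 site (TGANTCA), searched on both strands.
RUNX2, distal start, chr6:45328080-45328156: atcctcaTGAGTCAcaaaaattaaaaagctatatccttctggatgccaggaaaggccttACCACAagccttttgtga
SPP1, chr4:87975464-87975666: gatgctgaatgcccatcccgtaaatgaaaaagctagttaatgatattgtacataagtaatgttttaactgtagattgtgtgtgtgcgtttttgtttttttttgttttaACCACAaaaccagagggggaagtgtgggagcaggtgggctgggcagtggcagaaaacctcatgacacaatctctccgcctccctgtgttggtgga
IBSP, chr4:87799304-87799553: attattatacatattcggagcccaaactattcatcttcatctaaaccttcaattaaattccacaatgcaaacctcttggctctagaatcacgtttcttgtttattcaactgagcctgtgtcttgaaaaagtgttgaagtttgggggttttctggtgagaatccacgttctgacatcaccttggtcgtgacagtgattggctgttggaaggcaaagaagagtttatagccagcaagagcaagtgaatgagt
BGLAP, chr1:156241934-156242183: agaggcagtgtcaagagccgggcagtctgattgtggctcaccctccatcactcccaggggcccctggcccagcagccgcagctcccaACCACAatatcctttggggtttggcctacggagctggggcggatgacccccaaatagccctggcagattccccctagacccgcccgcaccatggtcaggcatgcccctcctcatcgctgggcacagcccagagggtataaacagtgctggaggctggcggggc
SPP1 and BGLAP each had 1 RUNX core within 250 bases before the start, the distal RUNX2 start had 2, of which 1 lies in the stretch shown, and IBSP had no match. The RUNX core occurred in 11% of all 35116 promoter windows of this length, TAATTA in 4.35% and TGANTCA in 6.57%. Windows were found for 7 of the 10 members, 10 windows in all. The 3 ALPL windows and the SPARC window had no match, and the MSX2 window had 1 homeodomain core. A match is a run of letters and was not tested as a bound site.

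The members spanned a wide range of levels. Per kilobase of exon, the median over 16 libraries was 357 CPM for SPARC, 54.4 for TNFRSF11B, 12.7 for ALPL, 1.38 for RUNX2, 0.105 for SPP1, 0.0318 for BGLAP, 0.0216 for IBSP, 0.0064 for SP7, 0.0062 for DLX5 and 0.0055 for MSX2. The ranges over libraries of SPARC, TNFRSF11B, ALPL and RUNX2 did not touch one another on this scale. Those of SPP1 and the genes under it overlapped, and the order of SP7, DLX5 and MSX2 rested on 36, 16 and 20 counts over 16 libraries. The order under RUNX2 also changed between groups. As group means, BGLAP (0.0728) lay above SPP1 (0.0272) in MmC-/GDF11-, and IBSP (0.110) lay above BGLAP (0.0294) in MmC+/GDF11-. Osteonectin, a general matricellular protein of mesenchymal cells, thus stood far above osteocalcin and bone sialoprotein, which are largely restricted to mineralizing tissue.

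**Figure D1:**
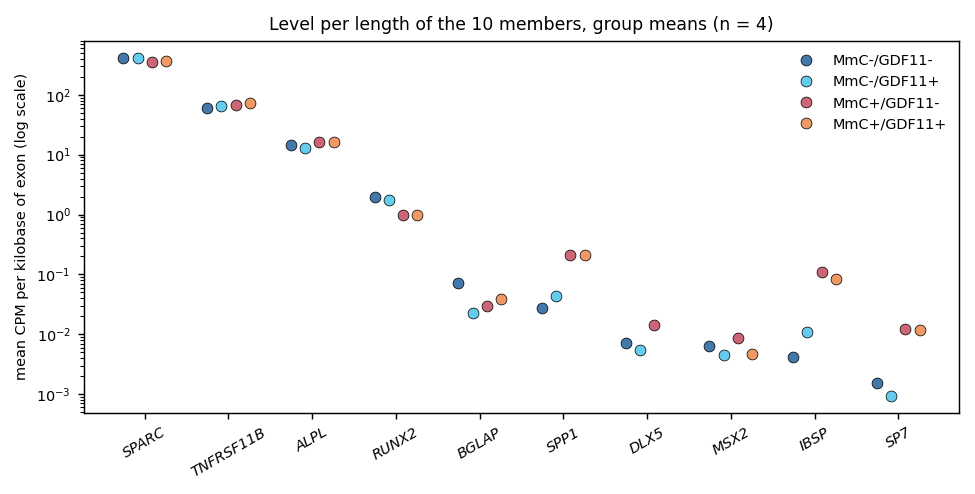
Mean CPM per kilobase of exon (log scale) of the 10 members in the 4 groups, 1 point per group mean (n = 4). SPARC, TNFRSF11B and ALPL sit highest in every group, SPP1, IBSP and SP7 sit higher in both groups with MmC, and DLX5 has no point for MmC+/GDF11+, where it had 0 counts.

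RUNX2 (ENSG00000124813.23, chr6:45328157-45664349 on hg38, plus strand) was the only transcription factor among the members to pass the filter. In MmC-/GDF11- it was at 14.6, 13.6, 17.3 and 18.3 CPM in replicates 1 to 4, and in MmC+/GDF11- at 9.91, 7.69, 7.08 and 7.64 CPM. The lowest young library lay above the highest senescent one. With GDF11, the young MSCs held 12.5, 12.6, 14.2 and 18.3 CPM and the senescent MSCs 10.0, 6.80, 7.56 and 8.42 CPM, and these groups did not overlap either. The log2 fold change for MmC was -0.98 (SE 0.16, adjusted p = 0.00012) without GDF11 and -0.82 (SE 0.16, adjusted p = 0.00056) with GDF11. In young MSCs GDF11 gave -0.14 (95% interval -0.47 to 0.18), and in senescent MSCs 0.02 (-0.31 to 0.35).

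Much of the transcriptome moved with MmC. Without GDF11, 45.3% of tested genes were called (22.9% higher and 22.4% lower), and with GDF11 46.7% (23.4% higher and 23.3% lower). In each, RUNX2 was called lower and SPP1 higher, that is 2 of the 5 tested members other than IBSP, which had to differ. The 4 and 4 libraries did not overlap in 37.3% of tested genes without GDF11 and in 41.5% with it. The RUNX2 gene lies across SUPT3H, a transcription cofactor gene, but their exons share no bases. SUPT3H was lower after MmC too, from 7.01 ± 0.69 to 4.59 ± 0.28 CPM (SD, n = 4), or -0.61 on the log2 scale (SE 0.11, adjusted p = 0.00023) without GDF11 and -0.53 (SE 0.11, adjusted p = 0.0007) with it.

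SP7 (ENSG00000170374.6, chr12:53326575-53345315, minus strand), which needs RUNX2 in bone, was barely counted. Replicates 1 to 4 had 0, 2, 0 and 0 counts in MmC-/GDF11- and 3, 4, 2 and 6 counts in MmC+/GDF11-. With GDF11 they had 0, 0, 1 and 0 counts in young and 2, 4, 9 and 3 counts in senescent MSCs. Every senescent library had a count, and most young libraries had none. Summed per group and scaled to depth, the ratio of senescent to young MSCs was 7.35 (95% exact interval 1.71 to 66.2) without GDF11 and 13.7 (2.17 to 572) with GDF11, intervals that cover counting error only. In CPM the 4 and 4 libraries did not overlap in either comparison. Without GDF11 the nearest libraries had 2 counts each, at 0.0223 CPM with MmC and 0.0207 CPM without, so only the scaling to depth separated them.

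SP7 did not pass the filter, and it was called only in the fit that kept every gene with a count (adjusted p = 0.0453 without GDF11 and 0.0222 with it), where 11.3% and 11.7% of genes were called higher. Among the 9238 genes under the filter with 10 to 100 counts over all libraries, the summed CPM was higher with MmC in 61.6% without GDF11 and in 65.4% with it, and over 5 times as high in 21.0% and 22.2%. The 4 and 4 libraries did not overlap in 12.6% and 12.7% of these low genes.

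DLX5 (ENSG00000105880.7, chr7:97020396-97024950, minus strand) and MSX2 (ENSG00000120149.9, chr5:174724582-174730896, plus strand), homeodomain factors of skeletal and craniofacial development, were at the edge of detection. Summed over the replicates, DLX5 had 4 counts in young MSCs without GDF11 and 3 with it, and 9 counts in senescent MSCs without GDF11 and 0 with it. The last group allows up to 0.00728 CPM, the level of 3 counts over its 4 libraries. In MmC+/GDF11- the DLX5 counts were 3, 1, 5 and 0, so 1 library of that group also had none. The ratio of MmC+/GDF11+ to MmC+/GDF11- had an upper limit of 0.444 (95% exact interval, counting error only). For this difference edgeR without a filter gave an adjusted p of 1 (0.00426 before adjustment). MSX2 had 5 and 3 counts in young and 7 and 5 counts in senescent MSCs, and the interval of each ratio between groups included 1. Of the words of 31 bases in MSX2, 9.54% also occur in OR4D1 or MSX2P1, so part of its few counts could come from them.

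**Figure D2:**
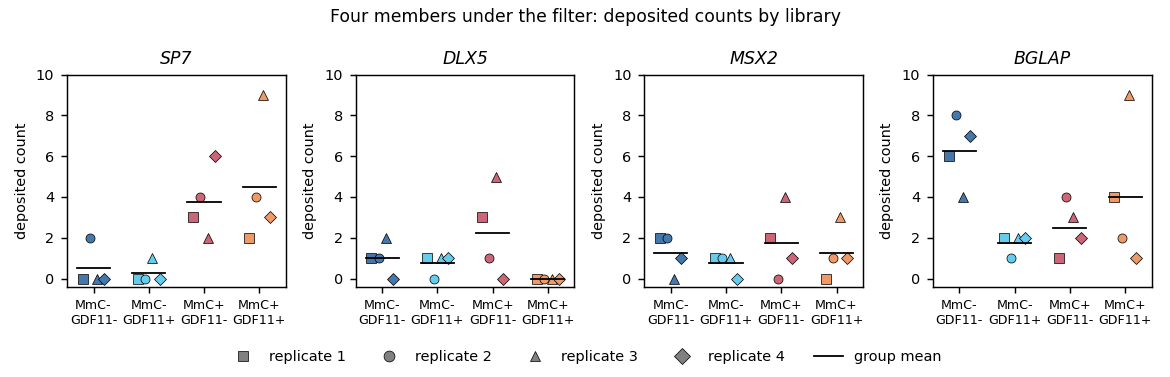
Deposited counts of SP7, DLX5, MSX2 and BGLAP in each library, by group, with the replicate number as the marker and the group mean as a line. All values are between 0 and 9 counts. SP7 is above 1 count in every library with MmC, and BGLAP is at 4 to 8 counts in MmC-/GDF11- and at 1 or 2 in MmC-/GDF11+.

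SPP1 (ENSG00000118785.15, chr4:87975667-87983532, plus strand) encodes osteopontin, an acidic phosphoprotein that binds integrins and hydroxyapatite and is also made by many cells outside bone. In MmC-/GDF11- it was at 0.143, 0.197, 0.275 and 0.173 CPM, and in MmC+/GDF11- at 1.11, 1.43, 1.84 and 1.75 CPM. With GDF11 the young MSCs held 0.403, 0.335, 0.281 and 0.246 CPM and the senescent MSCs 1.30, 1.902, 1.59 and 1.42 CPM. The lowest senescent library was above the highest young library in both comparisons. The log2 fold change was 2.96 (SE 0.24, adjusted p = 2.47e-07) without GDF11, 7.77-fold, and 2.30 (SE 0.23, adjusted p = 1.70e-06) with GDF11, 4.92-fold. SPP1 thus differed by a large factor at a low level, under 2 CPM in every library. Of its words of 31 bases, 7.33% also occur in transcripts of other genes, so part of its counts could come from them. Its exons cover 7250 bases in all, and its longest transcript holds 4066.

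GDF11 left SPP1 without a call. In young MSCs 3 of 4 libraries with GDF11 lay above the highest library without it, with a log2 fold change of 0.68 (95% interval 0.14 to 1.21), an unadjusted p of 0.0164 and, after adjustment, 1. The groups still overlapped, as in all but 0.89% of the tested genes. In senescent MSCs the log2 fold change was 0.02 (-0.43 to 0.46). The difference of the MmC effect between the presence and absence of GDF11 was -0.66 (-1.35 to 0.04), with an unadjusted p of 0.0616 that became 1 when adjusted. Unadjusted, 1.18% of tested genes fell under 0.05 for GDF11 in young MSCs, 0.503% in senescent MSCs and 0.9% for the interaction. Of the tested members only SPP1 in young MSCs did. In the fit without a filter, BGLAP in young MSCs (0.0189) and DLX5 in senescent MSCs (0.00426) did so too. Both also did for the interaction (0.0351 and 0.0318). In that fit 653, 575 and 687 of 41196 genes fell under 0.05 in the 3 comparisons. No gene of the 19103 was called by edgeR in any of these comparisons, DESeq2 called 1 gene in young MSCs, not a member, and limma-voom called none.

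IBSP (ENSG00000029559.7, chr4:87799554-87812435, plus strand) lies near SPP1 in the same cluster of genes for acidic phosphoproteins of mineralized tissue, and bone sialoprotein binds collagen and nucleates hydroxyapatite. It had 1, 0, 1 and 0 counts in MmC-/GDF11- and 4, 19, 17 and 21 counts in MmC+/GDF11-. With GDF11 it had 2, 3, 0 and 0 counts in young and 2, 8, 32 and 18 counts in senescent MSCs. The first replicate of each senescent group was the lowest, and with GDF11 it lay, at 0.0273 CPM, under the highest young library at 0.0402 CPM. Summed counts went from 2 to 61 without GDF11, a ratio scaled to depth of 29.9 (95% exact interval 7.92 to 252), and from 5 to 60 with GDF11, a ratio of 9.16 (3.71 to 29.2). The fitted log2 fold change was 4.61 (SE 0.98) and 2.98 (SE 0.86). Because the filter kept IBSP for its senescent libraries, its adjusted p-values after filtering (0.00124 and 0.00983) are a description and no test. In the fit of all genes with a count, which did not select it, the adjusted p was 0.00037 without GDF11 and 0.00658 with it. With GDF11 the filtered value rose above 0.05 when the third or the fourth replicate was left out of every group (log2 fold change 2.204, adjusted p = 0.126, and 2.35, adjusted p = 0.0807). For GDF11 the 95% intervals were wide, from -1.73 to 4.33 in young and from -1.59 to 0.92 in senescent MSCs.

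**Figure D3:**
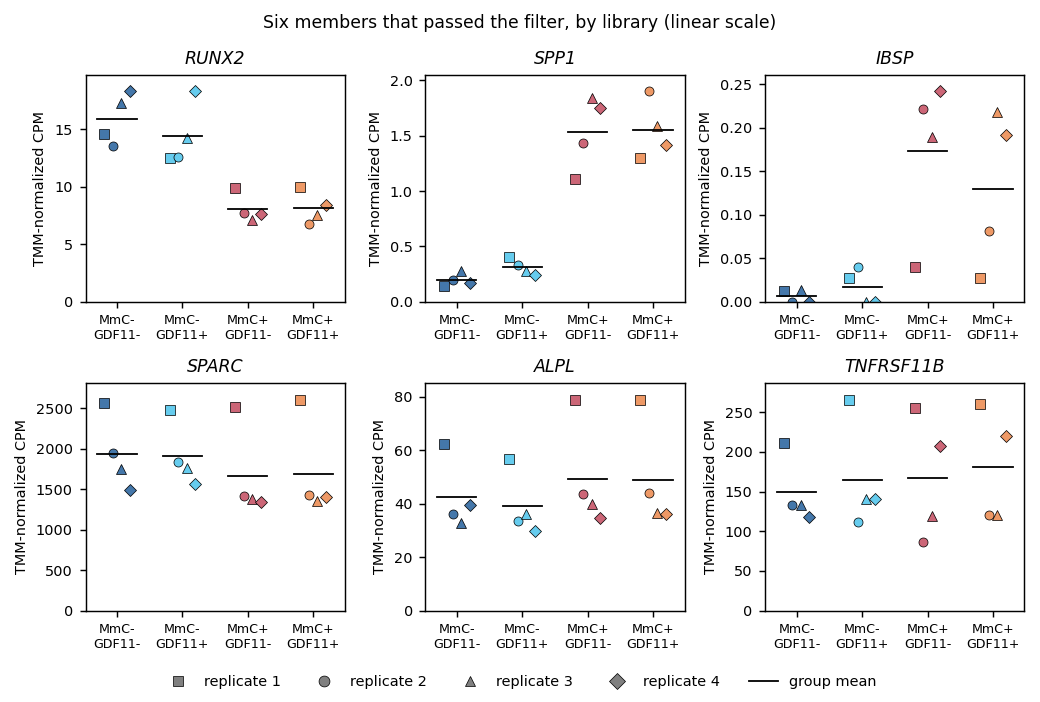
TMM-normalized CPM (linear axes from 0) of the 6 tested members in each of the 16 libraries, with the replicate number as the marker and the group mean as a line. RUNX2 is lower and SPP1 higher in every library with MmC, while replicate 1 is the highest library of each group for SPARC, ALPL and TNFRSF11B.

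Osteocalcin, the most bone-restricted of the matrix proteins, was nearly absent. BGLAP (ENSG00000242252.2, chr1:156242184-156243317, plus strand) had 6, 8, 4 and 7 counts in MmC-/GDF11- and 2, 1, 2 and 2 counts in MmC-/GDF11+. Senescent MSCs had 1, 4, 3 and 2 counts without GDF11 and 4, 2, 9 and 1 counts with it. In CPM, the untreated young libraries lay above all libraries of the young MSCs with GDF11 and above all libraries of the senescent MSCs without it. Such a gap was seen in 1.49% of the low genes defined above for GDF11 in young MSCs and in 12.6% for MmC without GDF11. For MmC the nearest libraries had 4 counts each, at 0.0524 CPM in young and 0.0466 CPM in senescent MSCs, so only the scaling to depth separated them. The ratio for GDF11 in young MSCs was 0.315 (95% exact interval 0.115 to 0.749, counting error only), and in senescent MSCs it was 1.402 (0.598 to 3.46). BGLAP did not pass the filter, and edgeR without a filter gave an adjusted p of 1 for GDF11 in young MSCs (0.0189 before adjustment). For MmC without GDF11 the adjusted p was 0.144.

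Of the exon bases of BGLAP, 40.9% are shared on the same strand with the read-through gene PMF1-BGLAP, and how the authors counted reads on shared bases is not given in the sources used here. PMF1-BGLAP had 49 and 41 summed counts in young MSCs without and with GDF11 and 45 and 73 in senescent MSCs, and was not called for MmC or GDF11. Upstream PMF1, a kinetochore protein gene, was lower after MmC, from 14.8 ± 2.4 to 8.33 ± 0.39 CPM (SD, n = 4) without GDF11 (log2 fold change -0.83, SE 0.11, adjusted p = 2.57e-05) and by -0.90 (SE 0.11, adjusted p = 1.18e-05) with GDF11.

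ALPL (ENSG00000162551.14, chr1:21509397-21578410, plus strand), the enzyme whose activity is the usual early marker of osteoblasts, was expressed throughout. It was at 62.4, 36.1, 32.7 and 39.4 CPM in MmC-/GDF11- and at 78.7, 43.4, 39.8 and 34.8 CPM in MmC+/GDF11-. With GDF11 it was at 56.8, 33.6, 36.2 and 29.7 CPM in young and at 78.6, 44.02, 36.4 and 36.1 CPM in senescent MSCs. Replicate 1 stood above the others in each group, and the groups overlapped. The log2 fold change for MmC was 0.21 (95% interval -0.46 to 0.87, adjusted p = 0.622) without GDF11 and 0.32 (-0.35 to 0.98, adjusted p = 0.428) with GDF11. For GDF11 it was -0.12 (-0.79 to 0.54) in young and -0.01 (-0.68 to 0.65) in senescent MSCs. For MmC without GDF11 the interval reaches from 0.727-fold to 1.83-fold. With the replicate number as a block ALPL was called for MmC with GDF11 (0.28, adjusted p = 0.0131). A block in a fit of only the 8 libraries compared called it too (0.31, adjusted p = 0.0203). Same-numbered libraries differed in that comparison by 0.008 to 0.47 on the log2 scale, and their correlation ran from 0.0293 to 0.311. Without GDF11 neither block called ALPL (adjusted p = 0.113 and 0.137).

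SPARC (ENSG00000113140.11, chr5:151661096-151686975, minus strand), a collagen-binding glycoprotein, was the most abundant member. MmC-/GDF11- held 2568, 1951, 1744 and 1485 CPM and MmC+/GDF11- 2518, 1414, 1381 and 1346 CPM. With GDF11 the young MSCs held 2474, 1841, 1761 and 1565 CPM, and the senescent MSCs 2600.2, 1424, 1349 and 1401 CPM. Replicate 1 was alike in all groups, and the other senescent libraries lay under the other young ones. The log2 fold change for MmC was -0.22 (95% interval -0.76 to 0.32, adjusted p = 0.508) without GDF11 and -0.17 (-0.71 to 0.36, adjusted p = 0.602) with it. Same-numbered libraries deviated together in MmC without GDF11, and with the replicate number as a block SPARC was called there (-0.24, adjusted p = 0.0399). It was also called when replicate 1 was left out of every group, at -0.32 (adjusted p = 0.0272) without GDF11 and -0.31 (adjusted p = 0.0351) with it. A block in a fit of only the 8 libraries compared did not call it (adjusted p = 0.141), so the call depended on the model and on replicate 1. For GDF11 the values were -0.02 (-0.56 to 0.52) in young and 0.02 (-0.51 to 0.56) in senescent MSCs.

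TNFRSF11B (ENSG00000164761.9, chr8:118923557-118951885, minus strand) varied more between replicates than between groups. It was at 212, 133, 133 and 118 CPM in MmC-/GDF11- and at 255, 86.6, 119.8 and 207 CPM in MmC+/GDF11-. With GDF11 it was at 265, 111, 140.3 and 141 CPM in young and at 261, 120.5, 120.1 and 220.01 CPM in senescent MSCs. Replicates 1 and 4 were the high ones in senescent MSCs, and replicate 1 alone in young MSCs. The log2 fold change for MmC was 0.17 (95% interval -0.60 to 0.94, adjusted p = 0.736) without GDF11 and 0.13 (-0.64 to 0.90, adjusted p = 0.789) with it, and for GDF11 it was 0.14 (-0.63 to 0.91) in young and 0.11 (-0.66 to 0.88) in senescent MSCs. In senescent MSCs the osteoprotegerin RNA of same-numbered libraries differed with GDF11 by 0.005 to 0.48 on the log2 scale. With the replicate number as a block TNFRSF11B was not called there (0.14, adjusted p = 0.9999).

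**Figure D4:**
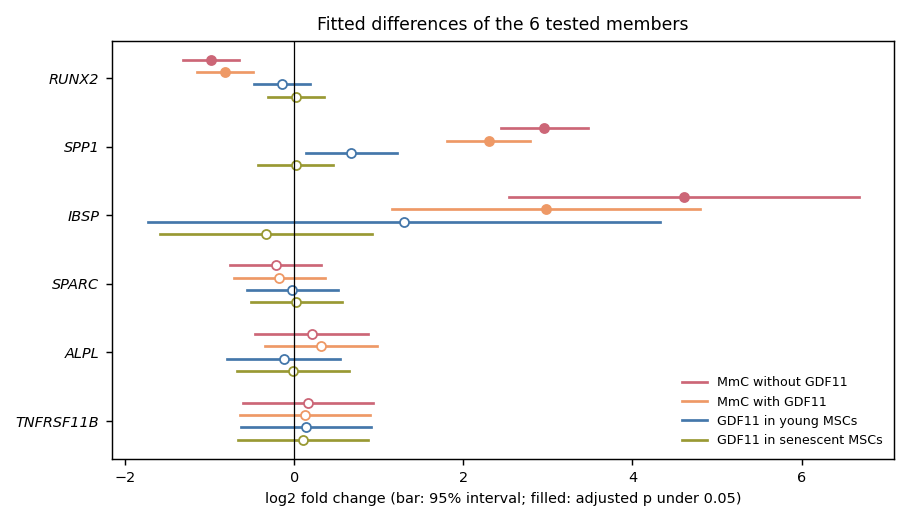
Fitted log2 fold changes of the 6 tested members in 4 comparisons, with 95% intervals as bars and filled points for an adjusted p under 0.05. RUNX2 is filled below 0 and SPP1 and IBSP above 0 for MmC, and every point for GDF11 is open. IBSP entered only through the libraries with MmC, so its filled points are a description and no test.

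Replicate 1 stood apart for several matrix and secreted proteins. It was the highest of its group in all 4 groups for SPARC, ALPL and TNFRSF11B, at 1.405 to 1.86, 1.69 to 2.16 and 1.60 to 2.16 times the median of the other libraries. Of all tested genes, 9.34% were highest and 8.56% lowest in replicate 1 in all 4 groups. SPP1 ran the other way in 3 of 4 groups, where replicate 1 was the lowest. The labels give all libraries 1 sequencing run and name no batch, while the study lists batch effects among its limitations without assigning libraries to one. The part of culture, extraction or library preparation in this was not tested.

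The genes whose pattern over the 16 libraries lay closest to each tested member, by the mean absolute difference of centred log2 CPM among 11662 protein-coding genes at a mean of at least 1 CPM, are given as a description. RUNX2 was closest to TSHZ1 (0.09) and KAT2B (0.10), a zinc finger and an acetyltransferase gene. SPP1 was closest to IL12A (0.21) and CCL26 (0.23), a cytokine subunit and a chemokine, and IBSP to G0S2 (0.31) and ACKR3 (0.39), an inhibitor of lipolysis and an atypical chemokine receptor. SPARC was closest to HDAC11 (0.08) and NDFIP2 (0.08), ALPL to CORO6 (0.08) and ITM2C (0.10), and TNFRSF11B to PCDH7 (0.19) and TMEM47 (0.19). For a typical candidate the difference was between 0.36 for SPARC and 1.30 for SPP1.

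Around these members, 68 further genes of bone formation in 6 lists were examined, of which 60 were tested. For MmC without GDF11, 15 were higher and 14 lower, 48.3% in all beside 45.3% of all tested genes. With GDF11, 19 were higher and 12 lower, 51.7% beside 46.7%. For GDF11 itself, edgeR called 0 of 60 in young and 0 of 60 in senescent MSCs (0 with an unadjusted p below 0.05, and 0 by DESeq2 or limma-voom). The median log2 fold change over all tested genes was -0.01 in both MmC comparisons.

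Among transcription factors and cofactors, 4 of 14 tested were higher and 2 lower after MmC without GDF11, with a median log2 fold change of 0.22. The homeodomain factor gene MSX1, unlike its near-silent relative MSX2, was well expressed and lower (18.8 ± 2.3 to 11.4 ± 1.5 CPM, SD, n = 4, log2 fold change -0.72, SE 0.13, adjusted p = 0.00035), as was ZNF521, an antagonist of RUNX2 (-0.60, SE 0.16, adjusted p = 0.00631). VDR, the vitamin D receptor gene, was higher (0.61, SE 0.19, adjusted p = 0.0149). The ZNF521 call was lost without replicate 3 (adjusted p = 0.0733), and that of VDR without replicate 2 (0.154), without replicate 3 (0.0844) or without replicate 2 of MmC+/GDF11- alone (0.0515).

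Of 9 tested genes for mineral deposition, 1 was higher and 4 were lower. ENPP1, which makes the pyrophosphate that ALPL removes, was lower (28.6 ± 6.3 to 17.04 ± 0.99 CPM, SD, n = 4, log2 fold change -0.75, SE 0.14, adjusted p = 0.00034). The annexins of matrix vesicles were lower too, ANXA2 by a log2 fold change of -1.18 (SE 0.23, adjusted p = 0.00068), ANXA5 by -0.52 (SE 0.13, adjusted p = 0.00415) and ANXA6 by -0.49 (SE 0.16, adjusted p = 0.0224). These annexins act in many membranes of the cell besides matrix vesicles. The ANXA5 call was lost without replicate 2 or 3 (adjusted p = 0.0653 and 0.0526). That of ANXA6 was lost without replicate 2, 3 or 4 (0.144, 0.115 and 0.0576), and without replicate 2 of MmC-/GDF11- (0.0731) or replicate 3 or 4 of MmC+/GDF11- (0.0567 and 0.0836).

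Of the other bone matrix proteins, 3 of 17 tested genes were higher and 6 lower, with a median of -0.67. OGN (osteoglycin) was lower by a log2 fold change of -3.50 (SE 0.50, adjusted p = 5.60e-05) and MGP, the matrix Gla protein that inhibits calcification, by -2.52 (SE 0.37, adjusted p = 6.80e-05), from 28.4 ± 18.6 to 4.93 ± 0.79 CPM (SD, n = 4). OMD (osteomodulin) was at -2.80 (SE 0.91, adjusted p = 0.0208) and FMOD (fibromodulin), another small leucine-rich proteoglycan, at 1.81 (SE 0.62, adjusted p = 0.0273). The OMD call was lost without replicate 1 of MmC-/GDF11- (log2 fold change -1.60, adjusted p = 0.126), without replicate 2, 3 or 4 of MmC+/GDF11- (0.0572, 0.0574 and 0.0608), and without replicate 2 or 3 of all groups (0.0697 and 0.0908). The FMOD call was lost without replicate 2, 3 or 4 of MmC-/GDF11- (0.0775, 0.0753 and 0.0741), without replicate 1 of MmC+/GDF11- (0.1002), and without replicate 2, 3 or 4 of all groups (0.0935, 0.102 and 0.109). Both moved the other way without replicate 1 of 1 group, to 2.73 for FMOD without that of MmC-/GDF11- and to -3.95 for OMD without that of MmC+/GDF11-. With the replicate block over 16 libraries both were called, FMOD at 2.03 (adjusted p = 7.10e-07) and OMD at -2.76 (adjusted p = 1.10e-06). COL1A1, the main collagen of bone and named here after its values were seen, was at 6803 ± 3161 CPM in young and 2610.1 ± 2108 CPM in senescent MSCs without GDF11 (SD, n = 4), and its adjusted p was 0.0485 by edgeR and 0.0723 by DESeq2. Its call was kept without replicate 1 of MmC+/GDF11- or without replicate 1 or 2 of MmC+/GDF11+, and was lost without any other single library (adjusted p up to 0.158). Its log2 fold change of -1.38 went to -0.99 without replicate 1 of MmC-/GDF11- and to -2.12 without replicate 1 of MmC+/GDF11-. With the replicate block it was -1.55 (adjusted p = 8.03e-05).

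Osteocyte genes, markers of cells buried in bone, were mostly under the filter, as 2 of 7 were tested and 0 called by edgeR for MmC without GDF11 (0 at an unadjusted 0.05, 0 by DESeq2). SOST, the gene of sclerostin, had 0 counts in both young groups and 14 and 19 counts in senescent MSCs without and with GDF11. DMP1 had 0 and 0 counts in young and 10 and 4 in senescent MSCs, MEPE 1 and 1 against 13 and 9, DSPP 0 and 0 against 2 and 7, and FGF23 0 and 2 against 3 and 2. All but FGF23 with GDF11 had more counts in senescent MSCs. SOST, DMP1 and MEPE lie in the range of counts of the low genes described with SP7, of which 61.6% and 65.4% had that direction. The summed CPM of these 3 genes was over 5 times as high with MmC in both comparisons, as in 21.0% and 22.2% of the low genes. The fit that kept every gene with a count called 2 of the 7 osteocyte genes without GDF11 and 1 with it. In that fit 8386 and 8605 of 41196 genes were called. Of the osteoclast axis, 1 of 4 tested genes was lower, LGR4, a receptor for R-spondins and RANKL (log2 fold change -0.95, SE 0.21, adjusted p = 0.00162). TNFSF11, the gene of RANKL itself, had 1 and 3 counts in young and 6 and 6 counts in senescent MSCs.

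Of the 14 upstream signals, all tested, 7 were higher and 1 lower after MmC without GDF11, with a median log2 fold change of 1.38, and with GDF11 9 were higher and 1 lower. BMP2, a strong inducer of osteoblasts, went from 0.234 ± 0.135 to 16.9 ± 10.2 CPM (SD, n = 4), or 6.17 on the log2 scale (SE 0.79, adjusted p = 2.36e-05), and BMP6 from 2.64 ± 1.64 to 47.1 ± 26.4 CPM (4.16, SE 0.69, adjusted p = 0.00022). WNT5A, a noncanonical Wnt ligand, was higher by 1.65 (SE 0.26, adjusted p = 0.00012) and the growth factor FGF2 by 2.29 (SE 0.19, adjusted p = 3.20e-07). In a block fit of only the 8 libraries compared the BMP6 call was lost (4.14, adjusted p = 0.051). The other called genes of the list were named after their values were seen. Among them were antagonists of Wnt or BMP signals, DKK1 at 1.15 (SE 0.15, adjusted p = 2.01e-05), NOG at 1.57 (SE 0.48, adjusted p = 0.0156) and SFRP1 at 1.42 (SE 0.55, adjusted p = 0.0465), while the Wnt ligand gene WNT10B was lower (-0.65, SE 0.16, adjusted p = 0.00411). The NOG call was lost without replicate 1 of MmC+/GDF11- (0.89, adjusted p = 0.0814) or replicate 4 of all groups (0.0703). SFRP1 was not called with the replicate block (1.18, adjusted p = 0.0835), and with single libraries left out it kept its call only without replicate 1 of MmC+/GDF11- or replicate 1 or 4 of MmC+/GDF11+ (adjusted p otherwise up to 0.118).

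**Figure D5:**
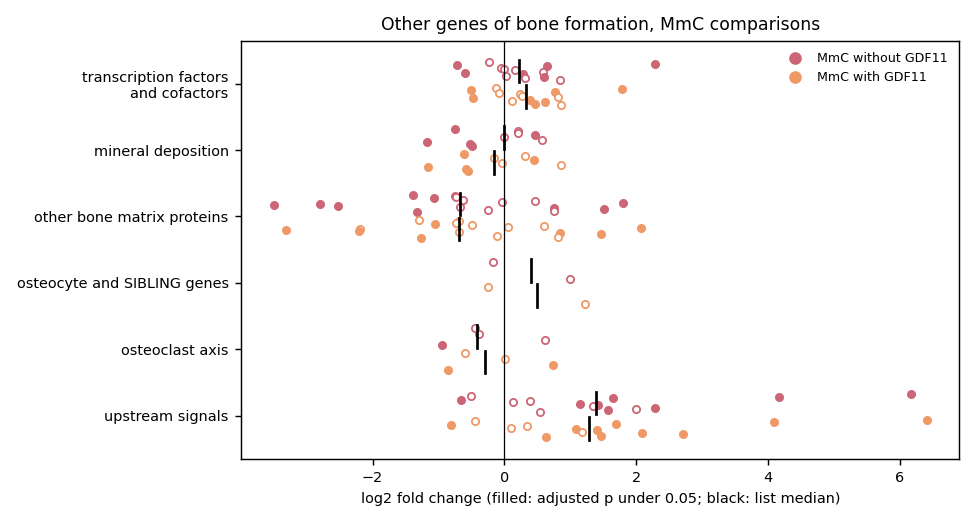
Log2 fold changes for MmC of the 60 tested genes of the 6 lists, without and with GDF11, with filled points for an adjusted p under 0.05 and black lines for list medians. The upstream signals have a median of 1.38 without GDF11, and the other bone matrix proteins reach from -3.50 to 1.81.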

How the data were processed

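Poly(A) RNA of ASC52telo MSCs was sequenced in 16 libraries, 4 biological replicates in each of 4 groups taken from the sample labels. The authors aligned read pairs to hg38 with HISAT2 2.2.1, counted them on GENCODE V38 genes with featureCounts 2.0.1 and deposited raw counts per gene. Strand, pair and multi-mapping settings of the counting are not given in the sources used here, nor is a test for differential expression, and reads on bases shared between genes could be dropped or assigned to either.

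Everything else was computed from the deposited counts in R 4.3.3. Genes were kept by filterByExpr (minimum count 10, minimum total 15), scaled by TMM and fitted with the robust quasi-likelihood model of edgeR 4.0.16 over all 16 libraries without a replicate term. Adjustment was by Benjamini-Hochberg over 19103 genes. Per-gene SE is the fold change divided by the root of F. Log2 CPM used a prior count of 2. Ratios of summed counts have exact binomial 95% intervals, and a count of 0 was bounded by 3 counts. Members, exon lengths and shared bases were matched in GENCODE v44, a later release. For 186 of 60649 identifiers no symbol was found.

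The members and lists were chosen with earlier results of these data known. Named beside the members are up to 4 genes per list, those with the largest change in MmC without GDF11 at an adjusted p under 0.05 and a mean of at least 1 CPM, genes that overlap a member, and the 2 nearest patterns. COL1A1, DKK1, NOG, SFRP1, WNT10B, COL10A1, ACAN, MATN3, COMP, CALCR, ACP5, TNFSF11 and the untested osteocyte genes were added after their values were seen. So were the markers NT5E, THY1, ENG, CDH5, PECAM1, VWF, FABP4, CEBPA, PLIN1, LPL and LEP. Of the genes this rule takes, 1 is not reported here, nor is 1 list of markers. The fit was tested on simulated data with known changes, drawn with the same spread for every gene and no replicate effect. It was thus not tested on libraries that share replicate deviations, as these do.

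Whether replicate numbers pair libraries was checked by correlating, across genes, the deviations of libraries with 1 number from their own group's mean. The labels name no shared batch. Every pair correlated above 0.1 in MmC without GDF11 (lowest r = 0.113) and in GDF11 in senescent MSCs (0.448), so the numbers were taken to pair these, but not in MmC with GDF11 (0.0293) or GDF11 in young MSCs (0.0982). Alternatives were upper-quartile and RLE scaling, keeping all genes, at least 10 counts in every library, DESeq2 1.42.0, limma-voom (limma 3.58.1), a replicate block, only the libraries compared, each library or replicate number left out and, chosen after seeing the data, no scaling beyond library totals.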

Additional observations from a re-analysis of the deposited data

Results flagged for a closer look

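In 3 of the 24 sets of 4 libraries formed by the 6 tested members and the 4 groups, the highest library stood far from the others, measured as its gap to the next library over the whole range of the group. Chance alone gives about 1 in 20. The gap was 0.941 of the range for SPARC in MmC+/GDF11-, 0.94 for SPARC in MmC+/GDF11+ and 0.844 for TNFRSF11B in MmC-/GDF11-. The library was replicate 1 each time. The values are those given with each gene, and the cause was not tested.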

How the results depend on the processing

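RUNX2 and SPP1 passed the threshold in each MmC comparison, beside 45.3% of all tested genes without GDF11 and 46.7% with it. Counted with IBSP, which had to differ, 3 of the 6 tested members were under it, and between 2 and 4 under the alternatives. For GDF11 or the interaction 0 passed under every alternative. RUNX2 and SPP1 kept their direction and call in both MmC comparisons under all alternatives. IBSP could not be fitted with at least 10 counts in every library, nor for the MmC comparisons with only the 8 libraries compared. Its filtered adjusted p with GDF11 rose above 0.05 without replicate 3 (2.204) or 4 (2.35). The replicate block over 16 libraries gave SPARC a call without GDF11 (-0.24, adjusted p = 0.0399) but not in the fit of 8 libraries (adjusted p = 0.141), and gave ALPL one with GDF11 (0.28, adjusted p = 0.0131, and 0.31, adjusted p = 0.0203, in 8 libraries). In MmC with GDF11 same-numbered libraries correlated at r = 0.311, 0.160, 0.0293 and 0.266 in replicates 1 to 4. They were not taken as pairs because the lowest was under 0.1, a limit set by choice. In MmC without GDF11, where the numbers were taken to pair, r was 0.368, 0.197, 0.113 and 0.235, also positive throughout and not far from these. Whether the numbers pair libraries in 1 comparison and not in the other is thus not settled. The block changed no other call of a member. For TNFRSF11B the interaction turned to 0.06 under limma-voom (0.0646) and under the replicate block (0.0579). With libraries left out, some log2 fold changes that were not called crossed 0. For MmC without GDF11 they ran from -0.11 to 0.46 for ALPL and from -0.10 to 0.40 for TNFRSF11B, and with GDF11 from -0.0022 to 0.57 and from -0.10 to 0.47. For GDF11 in young MSCs they ran from -0.17 to 0.15 for SPARC, -0.36 to 0.12 for ALPL and -0.19 to 0.37 for TNFRSF11B. In senescent MSCs they ran from -0.0857 to 0.14 for RUNX2, -0.25 to 0.30 for SPARC, -0.12 to 0.13 for SPP1, -0.33 to 0.31 for ALPL and -0.12 to 0.39 for TNFRSF11B, and in the interaction from -0.24 to 0.31, -0.21 to 0.43 and -0.27 to 0.30 for SPARC, ALPL and TNFRSF11B. Per length of the longest transcript in place of all exons, the level in MmC-/GDF11- moved to 2.71 CPM per kilobase for RUNX2, 561 for SPARC and 0.0485 for SPP1. Without a filter, 5 in place of 9 other bone matrix proteins and 2 in place of 0 osteocyte genes were called for MmC without GDF11, with 41196 genes fitted. Depth limits SP7, DLX5, MSX2, BGLAP and IBSP, where 1 count is worth about 0.01 CPM.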
